A study of Mus musculus with 16 samples.

Results

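The 10211 genes described here were those with an RNA level that allowed m6A capture to be set against input in the adipose tissue of wild type mice kept in the cold. They were chosen as the genes with at least 1 RPKM (reads scaled to transcript length and to library depth) in both input libraries of that condition, and they made up 10211 of the 17883 genes listed. For each gene, m6A enrichment was the log2 of RPKM + 1 in the m6A library over RPKM + 1 in the input library. The rule used the input level alone and no ratio. That level is the denominator of the enrichment, so the choice of members itself favours lower values. Just inside it stood Amot, with 1.24 and 1.00 RPKM in the inputs, and just outside it Tmc4, with 0.998 and 1.26 RPKM.

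N6-methyladenosine (m6A) is the most common internal methyl mark of mRNA. A nuclear complex built on METTL3 and METTL14 writes it, mostly in long internal exons, around the stop codon and in the 3′ UTR, the demethylases FTO and ALKBH5 can remove it, and YTH domain proteins read it, which can change splicing, stability and translation of the marked mRNA. In adipocytes the mark has been tied to fat cell formation and to heat production. An antibody against m6A pulls marked RNA out of a sample, so a marked transcript takes a larger share of the captured library than of the input, and an unmarked one a smaller share. The enrichment is relative: it orders transcripts within a sample and gives neither the number of methylated sites nor their stoichiometry, and values per gene do not place a site within a transcript.

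The study sequenced adipose tissue of C57BL/6 mice, 8 weeks old, in 16 libraries that form 8 groups of 2, and asks about METTL3, Klf9 mRNA and the browning of white fat. The wild type cold (WT cold) mice carried the METTL3 flox/flox genotype without Cre and were housed singly at 4 °C for 7 days; 2 m6A libraries and 2 input libraries came from them. The same kinds of library came from WT RT mice, which had that genotype and are labelled untreated, and from mice labelled cKO cold, which carried METTL3 flox/flox with Adipoq-Cre and were kept in the cold like WT cold. Both alleles of Mettl3 were thus floxed in every group, and Adipoq-Cre acts in adipocytes, so other cells of the tissue keep the gene. The labels name neither the fat depot nor whether replicates were separate animals, so the p-values cover the spread among libraries, which may be technical. Library codes of WT RT belong to a different series from those of both cold groups, and the effects of temperature and of that series cannot be told apart.

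In WT cold the m6A libraries held 6075294 and 6426541 reads on listed genes and the inputs 8673393 and 4453872, with a median per member of 122 and 126 reads in m6A and 217 and 100 in input. A total of 469 members had under 10 reads in at least 1 of these libraries. Reads counted at Lars2, a mitochondrial leucyl-tRNA synthetase gene, made up 25.3% and 24.3% of the m6A reads and 7.74% and 9.87% of the input reads. Ribosome footprints of WT cold at Lars2 reached only 13.3 and 8.14 RPKM. Whether the reads at Lars2 came from the synthetase mRNA was not tested. The 7 adipocyte markers fixed for the check, all of them members, summed to 9252 and 10304 RPKM in m6A and to 10632 and 10969 RPKM in input. The sums were 58.4 and 71.2 RPKM in m6A and 62.3 and 65.3 RPKM in input for 5 macrophage markers, and for 3 endothelial markers 213.6 and 199.1 RPKM in m6A and 167.8 and 163.0 RPKM in input. For 3 fibroblast markers, all members, they were 142.2 and 97.8 RPKM in m6A and 293.8 and 267 RPKM in input. Of these 3, Dcn stood at 36.6 and 52.1 RPKM in m6A and at 183 and 219 RPKM in input. Pdgfra (9.75 and 9.95 against 11.5 and 9.07 RPKM) and Col1a1 (95.9 and 35.7 against 99.6 and 39.0 RPKM) differed less. Macrophage markers lay on both sides, with C1qa higher in m6A in both pairs and Adgre1, Csf1r and Mrc1 lower. Fabp4 alone gave 6758 and 7328 RPKM of the adipocyte sums in m6A. Markers of T and B cells (0 of 4 members), skeletal muscle (0 of 3) and epithelium and epididymis (0 of 5) summed to at most 0.391, 5.63 and 0.275 RPKM in any WT cold library, with Cd79a, Ckm, Krt5, Epcam, Crisp1 and Lcn5 at 0 in each. In bulk tissue, fewer cells of a type and less RNA per cell cannot be told apart. Mettl3, the floxed gene, stood in the inputs at 5.24 and 3.66 RPKM in WT cold and at 3.83 and 1.90 RPKM in cKO cold. Mettl3 RNA thus overlapped between the genotypes, and a value per gene does not show a deleted exon, so cKO cold stands here for the label of those libraries.

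Whether more transcripts were lower or higher in m6A depended on how libraries were scaled. On the deposited scale, 1614 members (15.8%) were higher in m6A than in input and 3290 (32.2%) lower, at an adjusted p under 0.05 from limma fitted over all 13062 genes tested, and 5307 did not pass; 5791 had an unadjusted p under 0.05. Over all genes tested, 13.7% were higher and 25.6% lower. Because members were chosen by the denominator of the ratio, the balance of their calls is not read as a result. The log2 enrichment had a median of -0.22 (-0.11 over all genes tested) and ran from -1.52 at the 5th to 1.07 at the 95th percentile. At least 2-fold enrichment and depletion in the members that passed came to 623 higher and 1605 lower, and at least 4-fold to 33 and 145. With median-ratio scaling (libraries divided by their typical ratio to the average library) 2318 members were higher and 2673 lower, with a median of -0.05, all 1614 higher calls and 2669 of the 3290 lower calls were kept, and 0 changed side. With each library scaled to the sum of RPKM outside mitochondrial mRNAs, Lars2 and Gm20594, the balance turned to 2538 higher and 2275 lower, and the median was 0.03. Counts of gene lists are therefore given with those under median-ratio scaling. Counts on the deposited scale are to be read against the 15.8% higher and 32.2% lower of all members. List medians are to be read against the -0.22 of all members.

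Both pairs of libraries gave much the same order of genes. The enrichment of pair 1 and that of pair 2 correlated across the 10211 members at a Pearson's r of 0.893 and a Spearman's rho of 0.886, as a description across genes that are not independent. The 2 pairs had medians of -0.26 and -0.19. Of all members 8839 lay on the same side of 0 in both pairs. Each of the 4904 that passed did so too, which the test favours because it selects for a small spread between replicates. Calls grew with depth: of 1753 members with under 50 reads on average, 5.02% were higher and 29.8% lower, with a median standard error of 0.26, and of 662 members with 1000 reads or more, 27.8% were higher and 34.4% lower, with a median standard error of 0.15. A total of 693 members had under 1 RPKM in an m6A library, and 408 of these were lower; 502 genes with at least 1 RPKM in both m6A libraries were not members because of their input level.

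**Figure D1:**
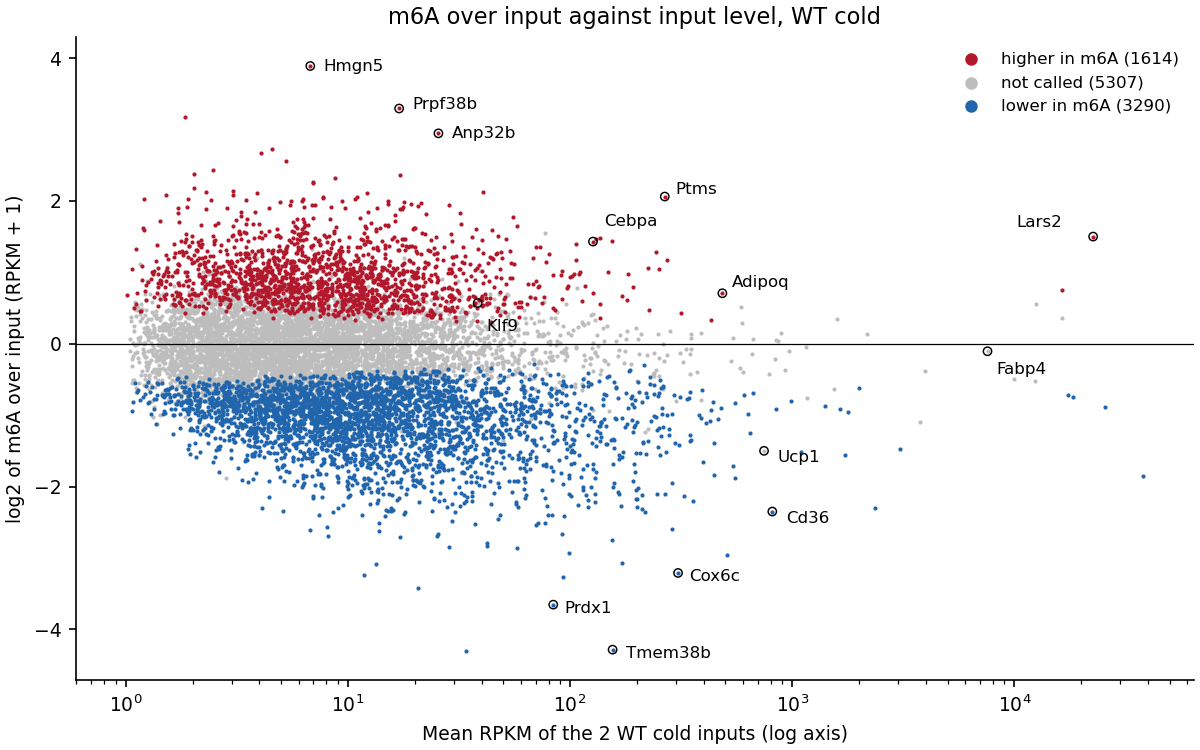
Each point is 1 of the 10211 members, with the mean RPKM of both WT cold inputs on the log horizontal axis and the log2 of m6A over input in WT cold on the vertical axis; red points were higher in m6A (1614), blue points lower (3290) and grey points not called (5307). Hmgn5 stands highest among the circled genes at 3.89, and Tmem38b lowest at -4.28, while Adipoq lies at 0.71 and Cd36 at -2.35 although both are abundant.

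Hmgn5 had the highest enrichment among the members that passed. Hmgn5, a chromatin protein that binds nucleosomes (chromosome X, 109004537 to 109013380, mm10), stood at 107 and 121 RPKM in m6A and at 7.27 and 6.27 RPKM in input. Both m6A libraries lay far above both inputs, a log2 enrichment of 3.89 ± 0.15 (SE, n = 2 libraries a group, limma adjusted p = 1.89e-06). Prpf38b, a splicing factor (chromosome 3, 108902805 to 108911729, mm10), had 152 and 201 RPKM in m6A and 15.1 and 18.9 RPKM in input (3.30 ± 0.18). Anp32b, an acidic histone chaperone, had 199 and 209 RPKM in m6A and 25.7 and 25.4 RPKM in input (2.95 ± 0.12). The groups overlapped for none of these 3 genes. Other members among the 15 highest were Gpatch4 (3.17), Ppig, a nuclear cyclophilin (2.73), Nsrp1, a splicing regulator (2.67), Pqbp1, which binds polyglutamine tracts (2.56), Traf3ip1, a protein of cilia (2.44), Gas1, a membrane protein that binds hedgehog ligands (2.38), Sec62 of the endoplasmic reticulum translocon (2.37), Rrs1, a ribosome assembly factor (2.33), Llph (2.25), Purg (2.18) and Znrd1as (2.14). These 15 were taken from members that passed, so their passing is not a result. Their limma adjusted p-values ran from 1.89e-06 to 0.0028 (Gas1). Small RNA genes lie within the loci of Hmgn5 and Nsrp1, and the sources used here do not say whether strand was used in counting.

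Prdx1, a peroxiredoxin that removes hydrogen peroxide (chromosome 4, 116685599 to 116700000, mm10), stood at 6.17 and 5.36 RPKM in m6A and at 84.4 and 83.6 RPKM in input (-3.65 ± 0.16, limma adjusted p = 1.93e-06). Cox6c, a subunit of cytochrome c oxidase (chromosome 15, 35931976 to 35938246, mm10), stood at 29.2 and 35.4 RPKM in m6A and at 319 and 294 RPKM in input (-3.21 ± 0.21). Both m6A libraries lay far below both inputs for each gene. Rpl30 of the large ribosomal subunit followed with 5.57 and 13.2 RPKM in m6A and 78.9 and 107 RPKM in input (-3.27), as did Rps21 (-2.86) and Rpl9 (-2.84), Cox7a2 of the same oxidase (-2.75), Apoo, a protein of mitochondrial cristae (-2.79), Rpl22l1, a ribosomal protein paralog (-3.09), Ifi27l2a, an interferon-induced gene (-3.08), and the ubiquitin pathway genes Skp1a (-2.94) and Ube2b (-2.84). Ribosomal protein genes have many near-identical pseudogenes, Skp1a overlaps Tcf7, Ube2b overlaps Cdkl3, Cox7a2 overlaps Tmem30a and Ifi27l2a overlaps Ifi27, so reads may be shared among them.

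Tmem38b and Xkrx, also among the 15 lowest, varied more between replicates. Tmem38b, an intracellular cation channel, stood at 6.61 and 6.14 RPKM in m6A and at 93.7 and 217 RPKM in input (-4.28 ± 0.35), and Xkrx, a membrane protein of the XK family, at 0.229 and 0.433 RPKM in m6A and at 10.8 and 57.1 RPKM in input (-4.30 ± 0.57). The inputs of these 2 genes differed by more than the inputs of Prdx1 or Cox6c. Rnf225, a RING finger protein (-3.24), and Olfr774, an olfactory receptor gene (-3.42), complete the 15. A ribosomal RNA gene is annotated within Tmem38b and a small nuclear RNA gene within Rnf225; whether reads of these reached the values was not tested.

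**Figure D2:**
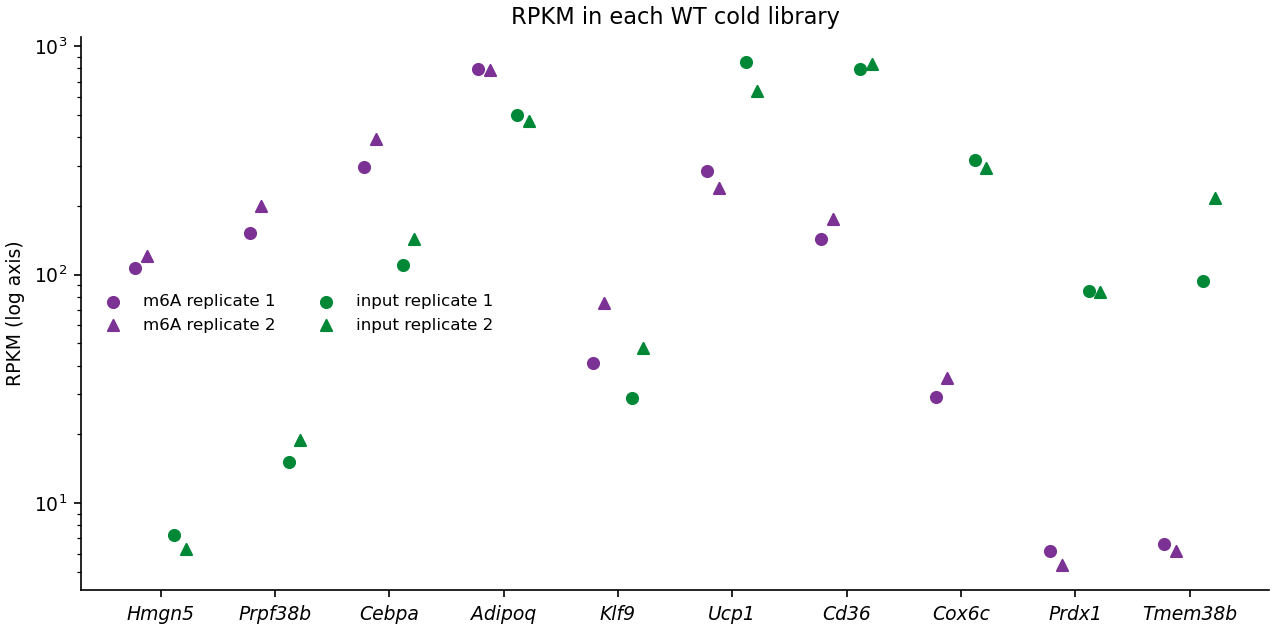
RPKM (log axis) of 10 genes in each WT cold library, with m6A in purple left of input in green, circles for replicate 1 and triangles for replicate 2. The m6A libraries lie above the inputs for Hmgn5, Prpf38b, Cebpa and Adipoq and below them for Ucp1, Cd36, Cox6c, Prdx1 and Tmem38b, and for Klf9 the m6A value of replicate 1 (41.2) lies below the input value of replicate 2 (48.0).

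A mean of at least 100 RPKM in the inputs was reached by 360 members. They were chosen by the denominator of the ratio, so their counts of calls are not read. Ptms, a small acidic nuclear protein, stood at 1241 and 989 RPKM in m6A and at 303 and 231 RPKM in input (2.06 ± 0.21). Lars2 stood at 64846 and 62312 RPKM in m6A and at 19879 and 25352 RPKM in input (1.5 ± 0.26, limma adjusted p = 0.00143), a call lost when genes of low level were not filtered out (0.191). With footprints of only 13.3 and 8.14 RPKM in WT cold, the value of Lars2 is not read as that of the synthetase mRNA. Calr, the calcium-binding chaperone of the endoplasmic reticulum (1.48), Ccdc80, a secreted adipose protein (1.47), and Ybx1, an mRNA-binding protein (1.44), were higher too. At the other end stood Gm20594 (-2.96) and Mmd, a membrane protein of the progestin receptor family, with 50.05 and 43.6 RPKM in m6A and 304 and 271 RPKM in input (-2.59 ± 0.12).

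Klf9, the transcription factor named in the study's title (chromosome 19, 23141226 to 23168129, mm10), stood at 41.2 and 75.3 RPKM in m6A and at 28.8 and 48.0 RPKM in input of WT cold. The groups overlapped, and both kinds of library were higher in replicate 2; within each pair the m6A library lay above its input, by 0.50 and 0.64 on the log2 scale. Its enrichment of 0.57 ± 0.30 did not pass (limma adjusted p = 0.167) and passed with the pairs as blocks (± 0.10, limma adjusted p = 0.00128). Klf9 also passed with scaling to RPKM outside mitochondrial mRNAs, Lars2 and Gm20594 (0.87, limma adjusted p = 0.0441). It did not pass with median-ratio scaling (0.78, limma adjusted p = 0.084) or in the other alternatives that kept all libraries. Without m6A replicate 1 the enrichment was 1.00, where m6A replicate 2 is set against both inputs, including the lower input of replicate 1. Of the 11 KLF transcription factors among the members 3 were higher and 0 lower, with a median of 0.54: Klf4 (1.20), Klf16 (0.69) and Klf13 (0.61). With median-ratio scaling 4 were higher, and with the block 6. Klf4 no longer passed when input replicate 1 (0.87, limma adjusted p = 0.0956) or m6A replicate 2 (0.80, 0.107) of WT cold was left out.

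Genes of heat production lay on both sides. Ucp1, the uncoupling protein by which mitochondria release heat (chromosome 8, 83290348 to 83298456, mm10), stood at 284 and 239 RPKM in m6A and at 854 and 639 RPKM in input of WT cold. Both m6A libraries lay well below both inputs, and the log2 enrichment was -1.59 in pair 1 and -1.41 in pair 2. Its mean of -1.5 ± 1.08 did not pass in the fit that shares 1 estimate of spread over 6 groups (limma adjusted p = 0.314); Ucp1 differed strongly between replicates elsewhere, at 25.4 and 1.96 RPKM in the m6A libraries of cKO cold. It passed with the pairs as blocks (± 0.12, limma adjusted p = 2.57e-05) and with the 4 WT cold libraries alone (0.00563). Of 34 thermogenic and beige markers 5 were higher and 4 lower, with a median of -0.05; the counts were 7 and 2 with quantile scaling and 6 and 3 with median-ratio scaling, and the block turned the balance to 9 higher and 12 lower.

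In that list Ppargc1b, a coactivator of mitochondrial genes, was higher, at 52.1 and 89.9 RPKM in m6A and 19.8 and 34.5 RPKM in input (1.36 ± 0.33, limma adjusted p = 0.00775). Prdm16, which drives brown fat genes, was higher as well, at 6.77 and 5.55 RPKM in m6A and 3.54 and 1.83 RPKM in input (0.99 ± 0.27, limma adjusted p = 0.0148), and did not pass when input replicate 2 (0.104) or m6A replicate 1 (0.0851) of WT cold was left out. Ppargc1a, a relative of Ppargc1b, did not pass, with 8.38 and 13.9 RPKM in m6A and 6.46 and 10.7 RPKM in input (0.34 ± 0.26, limma adjusted p = 0.338). Adrb3, the receptor through which noradrenaline acts on fat cells, had 67.6 and 110 RPKM in m6A and 55.7 and 68.9 RPKM in input (0.47 ± 0.26, limma adjusted p = 0.177, with the block 0.0187). Dio2, which activates thyroid hormone, had 14.3 and 18.9 RPKM in m6A and 11.4 and 11.003 RPKM in input (0.52 ± 0.21, limma adjusted p = 0.0789, with the block 0.0415 and with median-ratio scaling 0.0212).

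Other genes of the list had values below 0. Gk, which lets adipocytes reuse glycerol, was lower, at 6.15 and 4.00 RPKM in m6A and 34.9 and 16.9 RPKM in input (-2.08 ± 0.31), and so was Letmd1, a mitochondrial protein of brown fat (-1.71 ± 0.22). Cidea, which sits on the lipid droplets of thermogenic fat, stood at 165 and 172 RPKM in m6A and at 262 and 263 RPKM in input (-0.64 ± 0.38, limma adjusted p = 0.219, with the block 0.0359). Elovl3, which lengthens fatty acids, stood at 49.2 and 38.1 RPKM in m6A and at 84.5 and 54.5 RPKM in input (-0.64 ± 0.29, limma adjusted p = 0.108, with the block 0.0225), and its gene overlaps Pitx3. Fabp3, a carrier of fatty acids, stood at 129 and 61.6 RPKM in m6A and at 310 and 137 RPKM in input (-1.20 ± 0.97, limma adjusted p = 0.371, with the block 0.0016). For Cidea and Elovl3 both m6A libraries lay below both inputs; for Fabp3 they lay below within each pair, with a log2 enrichment of -1.26 and -1.14.

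Adipocyte genes lay on both sides. Of 25 adipocyte markers 3 were higher and 10 lower (3 and 4 with median-ratio scaling, 4 and 2 with quantile scaling), with a median of -0.18. Cebpa, a transcription factor that drives and holds the fat cell state (chromosome 7, 35119293 to 35121928, mm10), stood at 295 and 393 RPKM in m6A and at 110 and 143 RPKM in input (1.43 ± 0.18, limma adjusted p = 0.000192). Adipoq, the hormone adiponectin (chromosome 16, 23146536 to 23157968, mm10), stood at 794 and 790 RPKM in m6A and at 498 and 471 RPKM in input (0.71 ± 0.13, limma adjusted p = 0.00147). The groups did not overlap for these 2 genes. Plin4, a lipid droplet coat protein, had 432 and 751 RPKM in m6A and 177 and 308 RPKM in input (1.28 ± 0.29).

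Cd36, which takes up fatty acids, stood at 143 and 176 RPKM in m6A and at 793 and 834 RPKM in input (-2.35 ± 0.12, limma adjusted p = 4.16e-06), the lowest of the adipocyte markers. Pparg, the main transcription factor of adipocytes, had 84.7 and 79.4 RPKM in m6A and 131 and 109 RPKM in input (-0.54 ± 0.16, limma adjusted p = 0.0247). Its call was lost with median-ratio scaling (-0.33, limma adjusted p = 0.148), with the other 3 scalings and without WT cold input replicate 1, m6A replicate 1 or m6A replicate 2 (0.0621 to 0.139). Fabp4, Plin1 and Lep lay near 0, at -0.10 ± 0.17, -0.14 ± 0.15 and -0.15 ± 1.27, and each changed sign with other scalings. Lep, the hormone leptin, differed between replicates in both kinds of library, at 83.6 and 3.96 RPKM in m6A and 76.1 and 5.72 RPKM in input.

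Transcripts of transcription factors and chromatin regulators were among the most enriched groups. Of 40 adipogenic and brown fat transcription factors 15 were higher and 4 lower (18 and 1 with median-ratio scaling), with a median of 0.30, or 0.52 above that of all members. Cebpb, which acts early in fat cell formation, stood at 156 and 209 RPKM in m6A and at 49.1 and 65.8 RPKM in input (1.65 ± 0.26). Zfp217, a zinc finger protein of adipogenesis that is in none of these lists, stood at 18.6 and 9.91 RPKM in m6A and at 7.83 and 5.29 RPKM in input (0.97 ± 0.25, limma adjusted p = 0.0116). Zfp217 did not pass without input replicate 2 (0.73, limma adjusted p = 0.0809), without m6A replicate 1 (0.55, 0.0852) or with the 4 WT cold libraries alone (0.97, 0.075). Of 64 chromatin regulators 31 were higher and 4 lower (41 and 2 with median-ratio scaling), with a median of 0.41. The histone demethylase Kdm6b (1.44) and the acetyltransferase Kat6a (1.36) were among those higher. Hdac3, a deacetylase (-1.14), and Kat2b, an acetyltransferase (-1.09), were lower.

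Immediate early genes, which are switched on within minutes of a stimulus and give short-lived mRNAs, had 11 of 19 members higher and 0 lower (11 and 0 with median-ratio scaling), with a median of 0.70, the highest of any list with at least 7 members. Ier2 stood at 14.6 and 16.3 RPKM in m6A and at 4.16 and 1.92 RPKM in input (2.08 ± 0.25). Jun stood at 33.1 and 66.0 RPKM in m6A and at 9.62 and 11.97 RPKM in input (2.03 ± 0.33), and its relative Jund followed (2.01 ± 0.25). For all 3 genes both m6A libraries lay above both inputs. Hox genes, which mark position along the body axis, had 8 of 21 higher and 0 lower (13 and 0 with median-ratio scaling), with a median of 0.58, among them Hoxc9 (1.84) and Hoxc8 (1.25). Notch and Wnt signalling had 9 of 29 higher and 2 lower (14 and 2 with median-ratio scaling) and a median of 0.37, with Hes1, a Notch target (0.88), high and Ctnnb1, which encodes beta-catenin (-1.14), low. Collagen genes had 6 of 16 higher and 1 lower (7 and 0 with median-ratio scaling), with a median of 0.44, among them Col6a2 (1.13) and Col18a1 (0.95).

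The mRNAs of the m6A machinery were themselves unequal in m6A. Of 11 members of the writer list 4 were higher and 1 lower, the same with each of the 4 other scalings, and the median was 0.07. Zc3h13, a scaffold of the writer complex, stood at 27.9 and 29.6 RPKM in m6A and at 5.91 and 6.69 RPKM in input (2.03 ± 0.16), Rbm15, which guides the complex to its sites, at 31.7 and 27.4 RPKM in m6A and at 9.37 and 8.22 RPKM in input (1.64 ± 0.15), and its paralog Rbm15b at 10.1 and 10.7 RPKM in m6A and at 3.19 and 2.83 RPKM in input (1.51 ± 0.16). The groups did not overlap for these 3 genes. Mettl5, which methylates ribosomal RNA, was lower (-1.21 ± 0.25), and Mettl3 did not pass, at 4.23 and 2.69 RPKM in m6A and 5.24 and 3.66 RPKM in input (-0.30 ± 0.34, limma adjusted p = 0.54). Of 12 erasers and readers 5 were higher and 1 lower (5 and 0 with median-ratio scaling), with a median of 0.03. Ythdc1, the nuclear reader, stood at 33.8 and 36.7 RPKM in m6A and at 10.7 and 14.5 RPKM in input (1.43 ± 0.16), and Prrc2a (1.21) and Ythdf1 (0.90) were higher too. Hnrnpc was lower (-0.55 ± 0.19, limma adjusted p = 0.0396), a call lost with median-ratio scaling (-0.35, 0.185) and the 3 other scalings, without a filter or a trend, with the 4 WT cold libraries alone (0.112) and without either WT RT input, either WT cold input, either WT RT m6A library or WT cold m6A replicate 1 (-0.27, 0.30). The genes of Mettl3 and Tox4, of Rbm15 and Slc16a4 and of Mettl5 and Ssb overlap.

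Splicing factors spread to both ends, with 11 of 37 higher and 18 lower (13 and 14 with median-ratio scaling) and a median of -0.50. Snrnp70, a protein of the U1 particle, stood at 180 and 182 RPKM in m6A and at 43.5 and 37.9 RPKM in input (2.13 ± 0.11), followed by Rbm25 and Srsf11 (both 1.96). At the other end were Snrpe, a core protein of the spliceosome, with 3.60 and 1.24 RPKM in m6A and 20.4 and 10.7 RPKM in input (-2.30 ± 0.44), Srsf3 (-2.23) and Tra2b (-1.47). Heat shock proteins gave 5 higher and 3 lower of 17 (7 and 2 with median-ratio scaling), with a median of 0.16, with the chaperone Hsp90ab1 at 1.18 and Hspe1, the mitochondrial cochaperone whose gene overlaps Hspd1, at -1.81.

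Transcripts for the machinery of respiration were mostly depleted. Of 36 complex I subunits 24 were lower and 3 higher (21 and 4 with median-ratio scaling), and of 40 subunits of complexes II to V 30 were lower and 3 higher (28 and 3), with medians of -0.82 and -1.14. Ndufb5 of complex I stood at 13.4 and 14.9 RPKM in m6A and at 93.3 and 66.2 RPKM in input (-2.40 ± 0.22), with Ndufc1 (-2.22) and Ndufs1 (-1.86) next. Uqcrc2 of complex III stood at 42.9 and 40.5 RPKM in m6A and at 229.96 and 194 RPKM in input (-2.31 ± 0.16). Ndufv3 (1.26), Atp5k of the ATP synthase (1.26) and Uqcrh of complex III, with 512 and 525 RPKM in m6A and 240.3 and 261 RPKM in input (1.05 ± 0.15), were higher although they serve the same complexes. All but 1 of the 21 TCA cycle genes, 20, were lower and 0 higher (19 with median-ratio scaling), with a median of -1.03, among them Sdhd (-2.28), Idh3a (-1.69) and Sdhb (-1.52). Of 26 genes of fatty acid oxidation 19 were lower and 0 higher (18 with median-ratio scaling), with a median of -0.99. Hadhb, which carries the last steps of the cycle, stood at 70.5 and 76.5 RPKM in m6A and at 329 and 321 RPKM in input (-2.13 ± 0.16), and Echs1 (-2.0) and Decr1 (-1.70) followed; the gene of Echs1 overlaps Paox.

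The matrix held 10 of the 13 mitochondrial DNA-encoded mRNAs listed, and all 10 were members. Of these, 4 were lower and 1 higher (3 and 2 with median-ratio scaling, 2 and 2 with quantile scaling), with a median of -0.51. Scaling outside mitochondrial mRNAs, Lars2 and Gm20594 turned the balance to 4 higher and 3 lower. mt-Nd6, the mRNA of the light strand, stood at 453 and 509 RPKM in m6A and at 2202 and 2532 RPKM in input (-2.30 ± 0.20), mt-Co1 at 10700 and 10272 RPKM in m6A and at 38504 and 37289 RPKM in input (-1.85 ± 0.19), and mt-Atp6 at 13971 and 13788 RPKM in m6A and at 27262 and 24039 RPKM in input (-0.88 ± 0.20). mt-Co2 lay the other way, at 29226 and 25952 RPKM in m6A and at 17478 and 15419 RPKM in input (0.75 ± 0.20, limma adjusted p = 0.015), and did not pass when input replicate 2 (0.0919) or m6A replicate 1 (0.0837) of WT cold was left out, nor without a filter on low values (0.27).

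The ribosome, the proteasome and the lysosome were depleted too. Of 77 cytosolic ribosomal proteins 60 were lower and 3 higher (53 and 6 with median-ratio scaling), with a median of -1.06, or -0.85 relative to that of all members. Rpl41, a very short protein, was among the exceptions, at 438 and 493 RPKM in m6A and 207 and 240.4 RPKM in input (1.05 ± 0.14). Mitochondrial ribosomal proteins lay closer to the other members, where 28 of 77 were lower and 8 higher (median-ratio scaling gave 23 and 12) and the median was -0.34; Mrpl30 stood at -1.74 and Mrpl54 at 1.01. Of 36 proteasome subunits 21 were lower and 3 higher (18 and 5 with median-ratio scaling), with a median of -0.95. Psma5 (-2.25), Psma1 (-2.10) and Psmc6 (-2.0) were lower, while Psma4 of the same ring as Psma5 and Psma1 stood at 103 and 119 RPKM in m6A and at 43.1 and 37.0 RPKM in input (1.45 ± 0.17). Lysosomal cathepsins and proton pump subunits had 23 of 30 lower and 0 higher (median-ratio scaling gave 18), with a median of -0.94, led by Atp6v0d1 (-1.95), Atp6v0b (-1.94) and Atp6v1h (-1.93).

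Of 21 lipogenesis genes 9 were lower and 0 higher (6 with median-ratio scaling, 3 with quantile scaling), with a median of -0.63. Me1, which makes NADPH for fatty acid synthesis, stood at 526 and 652 RPKM in m6A and at 1577 and 1875 RPKM in input (-1.55 ± 0.35), and Elovl5 followed (-1.42). Fasn, the fatty acid synthase, did not pass, with 2800 and 3254 RPKM in m6A and 3782 and 4115 RPKM in input (-0.39 ± 0.30, limma adjusted p = 0.349, with the block 0.00369), and its sign changed with quantile scaling (0.13). Of 34 genes of triglyceride synthesis, lipid droplets and lipolysis 13 were lower and 1 higher (10 and 3 with median-ratio scaling, 10 and 6 with scaling outside mitochondrial mRNAs, Lars2 and Gm20594), with Mogat1, an acyltransferase, at -1.73. The median of -0.25 lay 0.03 from that of all members, of which 32.2% were lower.

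Insulin signalling gave 3 higher and 6 lower of 27 with a median of -0.21, and 5 and 4 with median-ratio scaling; the kinase Pdpk1 (-1.40) was lower. Beta-adrenergic and cAMP signalling gave 5 higher and 6 lower of 29 with a median of 0.03, and 8 and 6 with median-ratio scaling, with Prkar1a, a regulatory subunit of protein kinase A, at -1.30. The circadian clock (median 0.15) gave 1 higher and 2 lower of 20, the lower ones being Cry1 (-1.41) and Clock (-1.18), against 2 and 2 with median-ratio scaling, and SOCS proteins (median 0.16) 1 and 1 of 7 (2 and 0). Fibroblast and preadipocyte markers (median -0.51) gave 5 lower and 0 higher of 16 (4 and 1), among them the matrix protein decorin, Dcn, at 36.6 and 52.1 RPKM in m6A and 183 and 219 RPKM in input (-2.17 ± 0.31). Macrophage markers (median -0.57) gave 1 higher and 4 lower of 16 (2 and 3), with Lyz1 at -1.76, and endothelial markers (median -0.10) 4 higher and 2 lower of 16 (5 and 1), with the transcription factor Erg at 1.37. Both skeletal muscle members were not called, and the T and B cell and epithelial lists had 0 members. Of all members 15.8% were higher and 32.2% lower, and list counts near these shares are not read as results about the lists.

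With the pairs as blocks, 19.4% of all genes tested were higher in m6A and 31.9% lower, and the counts of several lists moved. Lipogenesis had 1 higher and 16 lower, triglyceride and droplet genes 3 and 17, adipocyte markers 4 and 12, insulin signalling 5 and 12 and beta-adrenergic signalling 10 and 8. Fibroblast markers had 2 higher and 10 lower, macrophage markers 3 and 8, endothelial markers 6 and 6, the clock 4 and 3 and SOCS proteins 2 and 1. Hox genes had 14 higher and 0 lower, Notch and Wnt genes 16 and 4, collagens 9 and 3, adipogenic transcription factors 20 and 8 and heat shock proteins 6 and 6. Cytosolic ribosomal proteins had 6 higher and 64 lower, mitochondrial ones 13 and 38, proteasome subunits 5 and 23 and mitochondrial DNA-encoded mRNAs 2 and 6. Writers had 4 higher and 2 lower, and erasers and readers 5 and 3.

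**Figure D3:**
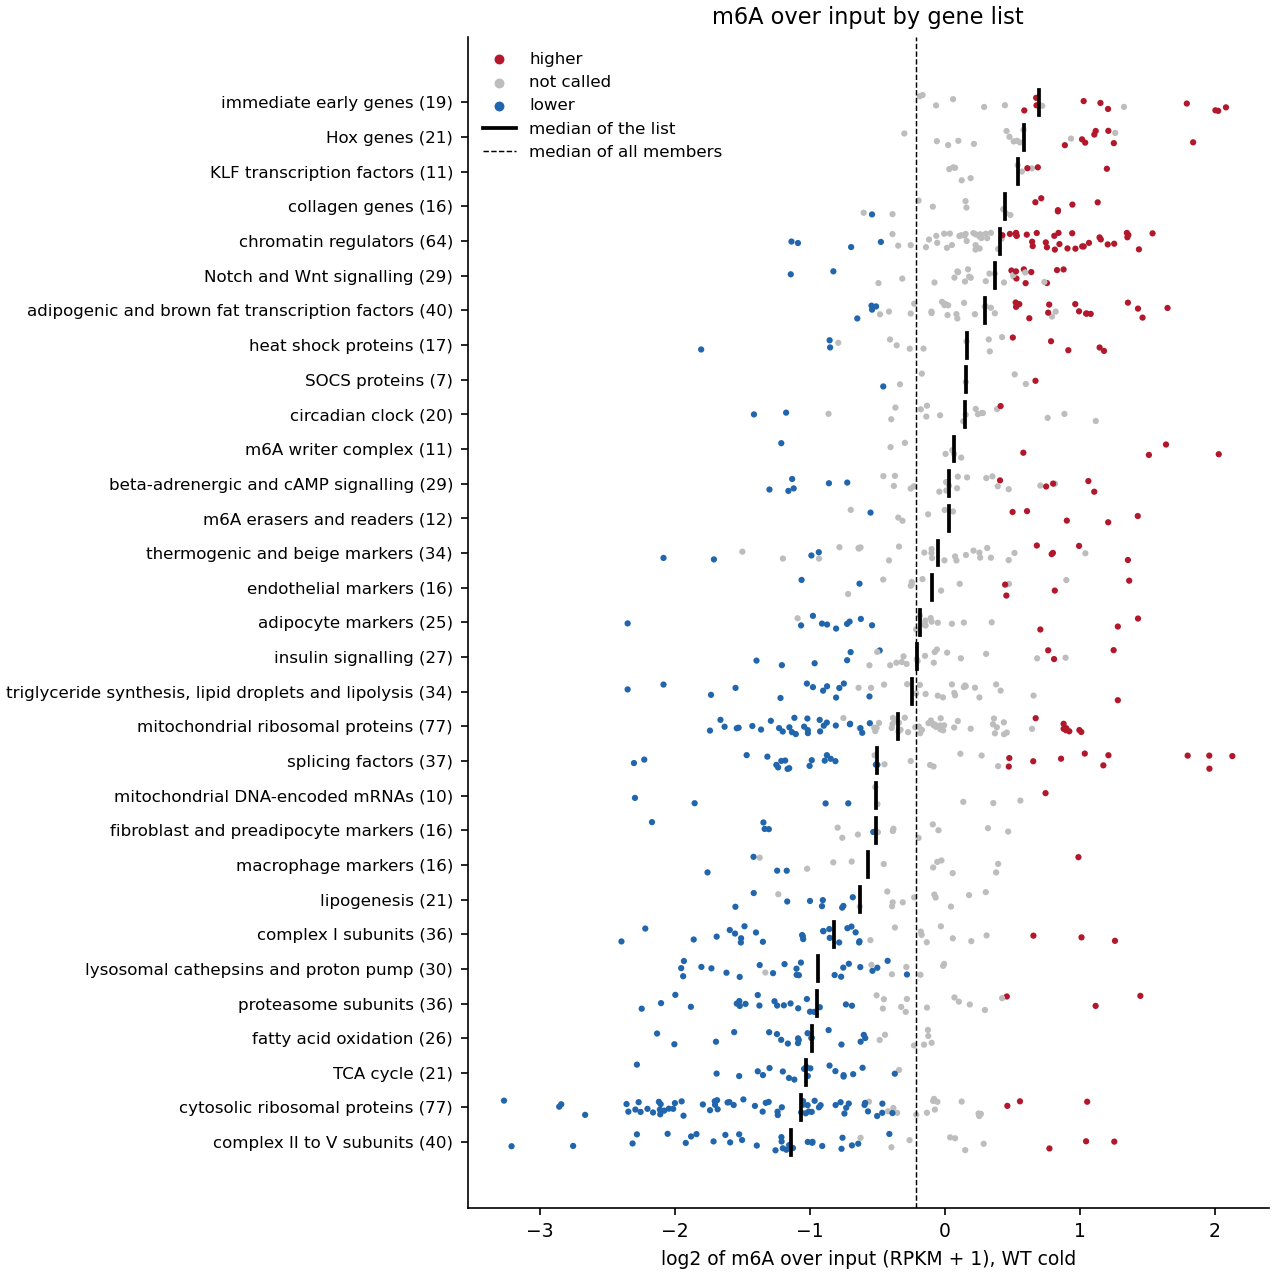
Log2 of m6A over input in WT cold for the members of each gene list with at least 7 of them (number in brackets), 1 point a gene, coloured by call; short black bars are list medians, and the dashed line is the median of all members (-0.22). Immediate early genes have the highest median (0.70), and complex II to V subunits (-1.14) and cytosolic ribosomal proteins (-1.06) the lowest.

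Enrichment went with the length of the coding sequence. Lengths were recovered from the deposited values, coding lengths for 9184 members (89.9%). Of 836 members with under 500 coding nucleotides, 9.93% were higher and 45.1% lower in m6A, with a median of -0.55. Of 700 with over 4000, 28.6% were higher and 21.4% lower, with a median of 0.08. Of all members 15.8% were higher and 32.2% lower. At a given RPKM a longer transcript holds more reads, and calls also grew with depth. The median enrichment was -0.38 in members with under 50 reads on average and -0.09 in those with 1000 or more. Length and depth were not separated. Across members the Spearman's rho with enrichment was 0.213 for coding length, 0.136 for transcript length and 0.041 for noncoding exonic length, as a description of genes that share libraries and base composition. Enriched members had a median coding length of 1767 nucleotides, depleted ones 1173 and those not called 1444.5. Lists did not follow length alone: the median coding length was 454.5 nucleotides for cytosolic ribosomal proteins and 4732.5 for chromatin regulators, but 990 for immediate early genes and 727.5 for Hox genes, which were enriched, and 1239 for the TCA cycle and 1281 for fatty acid oxidation, which were depleted.

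Ribosome footprints of WT cold ran the other way. The ratio of WT cold footprints to WT RT input shares no library with the enrichment but is not independent of it. Any change of RNA level between WT RT and WT cold enters this ratio and also the WT cold inputs, and WT RT has another series of library codes. The ratio was lower in more enriched members. Cut by enrichment into 10 groups of equal size, members had a median log2 ratio of -0.91 in the most enriched group and 1.34 in the most depleted. The Spearman's rho across all members was -0.392, and it was -0.345 for the footprint level alone and -0.344 for footprints over input in cKO cold. Footprints were scaled to coding length and the other values to transcript length, so only differences among groups of genes are read.

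**Figure D4:**
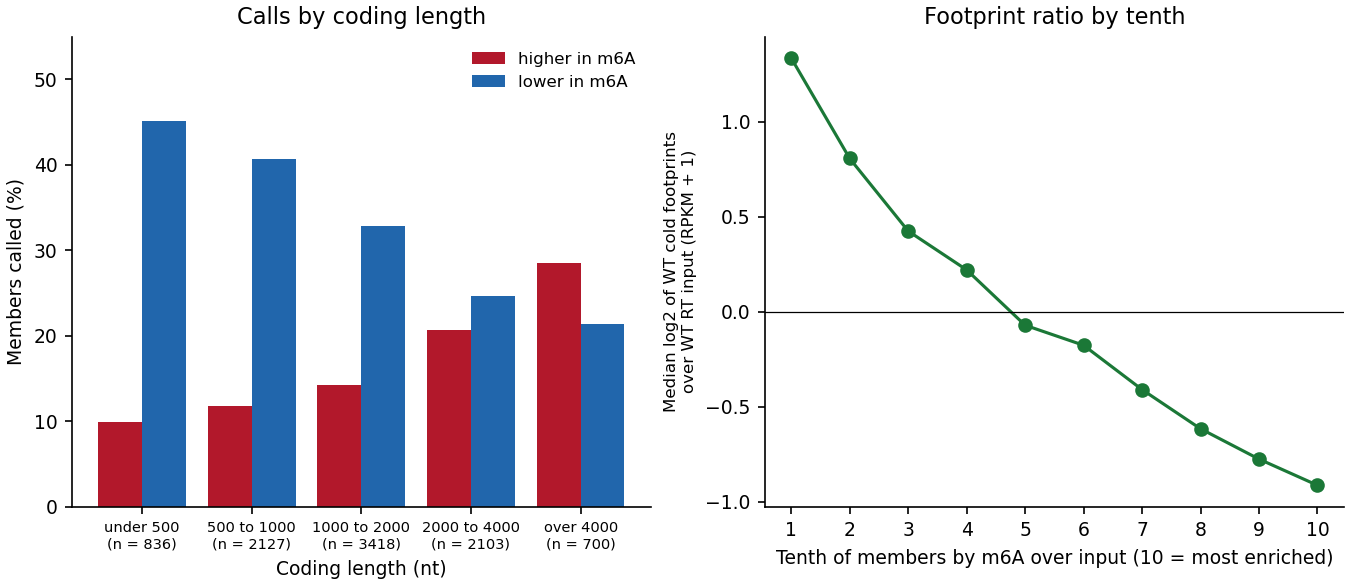
Left, the percentage of members called higher (red) and lower (blue) in m6A by coding length in nucleotides, with the number of members under each bin; right, the median log2 of WT cold footprints over WT RT input in 10 equal groups of the members ordered by m6A over input. Lower calls drop to 21.4% in the longest bin, against 45.1% in the shortest, and the footprint ratio drops to -0.91 in group 10, against 1.34 in group 1.

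The pattern of WT cold was much like that of the other conditions. In WT RT the enrichment of the same members correlated with that of WT cold at a Pearson's r of 0.903, with 95.5% of the members higher in WT cold above 0 and 99.6% of the lower ones below 0; in cKO cold the r was 0.892 and the shares 91.1% and 99.5%. Of all members 35.5% lay above 0 in WT RT and 30.7% in cKO cold. The median enrichment was -0.22 in WT cold, -0.34 in WT RT and -0.42 in cKO cold. These median differences, 0.12 for WT cold minus WT RT and 0.16 for WT cold minus cKO cold, became -0.01 and -0.05 with median-ratio scaling.

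The difference in enrichment between WT cold and WT RT, tested as an interaction, passed for 5 members lower in WT cold and for 0 higher (limma; 1126 at an unadjusted p under 0.05; of all genes tested, 0.0383% were lower and 0.023% higher). With the pairs as blocks 200 members were higher and 35 lower, where 1.7% and 0.367% of all genes tested were called. The block was fitted on the deposited scale alone. There the median difference of members was 0.12, and it was -0.01 with median-ratio scaling, so the balance of these counts is not read. The direction of the 5 is not read as a result, because members were chosen by the WT cold inputs: over all 13062 genes 5 were lower and 3 higher, and those 3 were not members. Tmem38b stood at 6.61 and 6.14 RPKM in m6A and 93.7 and 217 RPKM in input of WT cold, and at 9.40 and 15.2 RPKM in m6A and 9.06 and 11.6 RPKM in input of WT RT. The m6A libraries of WT cold lay below those of WT RT while its inputs lay above, a difference of -4.49 ± 0.50 (limma adjusted p = 0.0268). The others were Rnf225, Klkb1, Cideb and Olfr729, each with at most 0.593 RPKM in any m6A library of either condition and under 1 RPKM in both WT RT inputs, so that they are members through the cold alone. None of the 5 calls held with a pseudocount of 0.1. The count of lower members fell to 0 without any 1 m6A library or either WT RT input, to 3 without WT cold input replicate 2 or either cKO cold input, and was 5 without WT cold input replicate 1.

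The 8 members named at the high end of this difference did not pass at an adjusted p under 0.05 in the fit without blocks and did with the pairs as blocks; 3 of them follow. Fau, a ribosomal protein fused to a ubiquitin-like domain, stood at 128 and 150.1 RPKM in m6A and 104 and 127 RPKM in input of WT cold, and at 245 and 262 RPKM in m6A and 503 and 532 RPKM in input of WT RT. Its enrichment was 0.27 in WT cold and -1.03 in WT RT, a difference of 1.29 ± 0.18 (limma adjusted p = 0.0507, with the block 0.00526). Hmgn5 was enriched by 3.89 in WT cold and 2.60 in WT RT (difference 1.29 ± 0.21, limma adjusted p = 0.0795, with the block 0.0229). Rbm39, a splicing coactivator, was at 1.21 in WT cold and -0.12 in WT RT (difference 1.33 ± 0.22, limma adjusted p = 0.0795, with the block 0.0226). Klf9 was at 0.57 in WT cold and 0.77 in WT RT (difference -0.20 ± 0.43, limma adjusted p = 0.929), and Ucp1 at -1.5 in WT cold and -0.76 in WT RT (difference -0.74 ± 1.53, limma adjusted p = 0.924).

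The difference between WT cold and cKO cold passed for 0 members in either direction (limma, 0.0% of all genes tested in each direction). At an unadjusted p under 0.05 there were 1108. In data simulated without pairs, this test recovered a log2 step of 1 in 4.5% of changed genes, so 0 calls do not show equal enrichment. Without WT cold input replicate 1, 6 members were higher in WT cold. With the pairs as blocks 380 members were higher in WT cold and 8 lower, where 3.04% and 0.0612% of all genes tested were called. The block was fitted on the deposited scale alone. There the median difference of members was 0.16, and it was -0.05 with median-ratio scaling, so the balance of these counts is not read. Rab9, a GTPase of late endosomes, stood at 28.1 and 31.3 RPKM in m6A and 25.4 and 27.2 RPKM in input of WT cold, and at 23.5 and 21.5 RPKM in m6A and 50.4 and 51.8 RPKM in input of cKO cold. Its enrichment was 0.17 in WT cold and -1.15 in cKO cold, a difference of 1.32 ± 0.16 (limma adjusted p = 0.0672, with the block 0.00844). Klb, the coreceptor for FGF21, stood at 49.5 and 62.3 RPKM in m6A and 32.8 and 41.5 RPKM in input of WT cold, and at 21.0 and 24.2 RPKM in m6A and 48.9 and 65.6 RPKM in input of cKO cold. The m6A libraries lay above the inputs in the pairs of WT cold and below them in those of cKO cold, a difference of 1.87 ± 0.29 (limma adjusted p = 0.0885, with the block 0.00639).

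Adipoq, which only adipocytes make, had 794 and 790 RPKM in m6A and 498 and 471 RPKM in input of WT cold, and 518 and 482 RPKM in m6A and 621 and 724 RPKM in input of cKO cold. It was enriched in WT cold (0.71) and depleted in cKO cold (-0.42), a difference of 1.13 ± 0.18 (limma adjusted p = 0.0885, with the block 0.00933). Cebpa was at 1.43 in WT cold and 0.24 in cKO cold (difference 1.19 ± 0.25, limma adjusted p = 0.136, with the block 0.00722). Lrrc8d, a subunit of volume-regulated anion channels (difference 1.28), Twnk, the mitochondrial DNA helicase (1.33), and Lipt1, a lipoyltransferase (1.88), likewise passed with the block, and Lipt1 also without WT cold input replicate 1; the genes of Twnk and Mrpl43 and of Lipt1 and Mitd1 overlap. Cideb is a member through its WT cold inputs, which the rule used, so its difference is given as a description, with 0.272 and 0.128 RPKM in m6A and 3.61 and 3.52 RPKM in input of WT cold, and 0.163 and 0.467 RPKM in m6A of cKO cold, where its inputs were at 0. Some members passed with the block in the other direction, lower in WT cold than in cKO cold. Among them were Hoxb7 (difference -1.32), Snrnp48 (-1.23) and Trim12a (-0.99), which did not pass without the block. Hoxb7 stood under 1 RPKM in both cKO cold inputs. Klf9 was at 0.57 in WT cold and 0.08 in cKO cold (difference 0.49 ± 0.43, limma adjusted p = 0.78, with the block 0.0988). These differences and those against WT RT share the WT cold libraries.

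**Figure D5:**
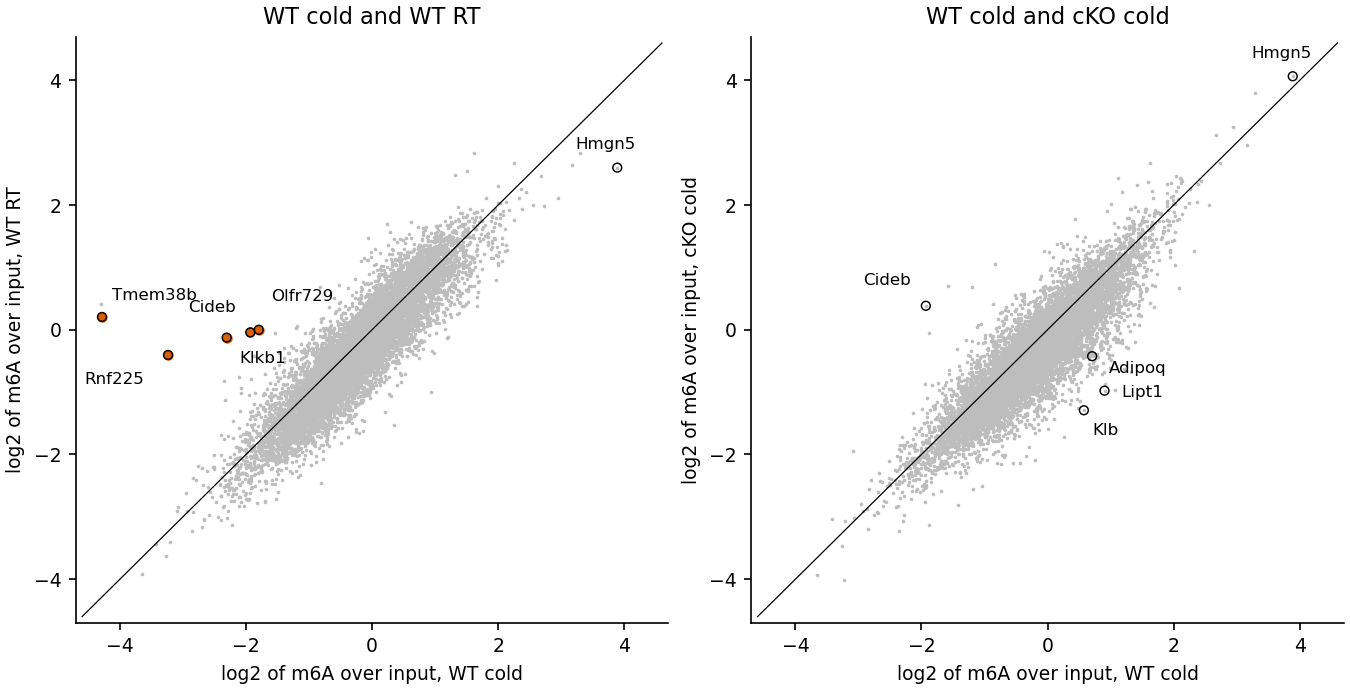
Log2 of m6A over input of each member in WT cold (horizontal axes) against WT RT (left) and cKO cold (right), with the line of equality; orange points are the 5 members whose difference passed, and other labelled genes are circled. Most points lie along the line, Hmgn5 is the highest labelled gene in both panels, and Klb, Lipt1 and Adipoq lie above 0 in WT cold and below 0 in cKO cold.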

How the data were processed

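The deposited values are RPKM per gene in 1 matrix of 16 libraries, made by the authors; all value columns were used and 0 left out. Per the submitters' processing notes, reads went through HISAT2 against mm10, with no version given. The counting tool, annotation and use of strand are not given in the sources used here. Per the labels' protocols, RNA was taken with Trizol, m6A-marked RNA captured with an antibody and libraries made with a small RNA kit. Because RPKM are whole reads times a constant per library over a length per gene, reads were recovered; 100.0% of input and m6A values came out whole within 0.001 read plus 3e-08 of the reads. The same step gave transcript and, from footprints, coding lengths (96.5% multiples of 3). Replicates differed by 12.8 (m6A) and 14.8 (input) times counting error (chi-square per degree of freedom).

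Log2(RPKM + 1) was tested with limma 3.58.1 in R 4.3.3 (lmFit, eBayes with a trend, two-sided), over the 12 input and m6A libraries as 6 group means without a block, where 2 or more of them reached 1 RPKM (13062 genes). There were 6 residual degrees of freedom (3 with blocks). P-values were adjusted by Benjamini and Hochberg's method across these genes (threshold 0.05); errors are standard errors. The pseudocount shrinks fold changes of low genes. Alternatives were the replicate block, other pseudocounts, filters and scalings, no trend, each library left out, only the 4 WT cold libraries, other member rules and, chosen after seeing the data, voom weights and a scaling on recovered reads. Other work used Python 3.11.15, numpy 2.4.6, pandas 2.3.3, scipy 1.17.1 and matplotlib 3.10.9. The tests were tested on simulated data.

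Over 9192 genes, the deviation of an m6A library from its group mean correlated with that of the same-numbered input at 0.648 in WT cold, 0.300 in WT RT and 0.477 in cKO cold, and libraries of different conditions at -0.0507 to 0.0807. Within a condition the numbers were taken as pairs on this ground; no label states it.

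The members and the 34 gene lists were chosen with earlier results of these data known. Of 17883 identifiers, 17871 matched the reference table, and coordinates are RefSeq's on GRCm38 (mm10). Genes were named by a rule: the 15 highest and 15 lowest members past the test with a named gene model, the 6 at each end with a mean of at least 100 RPKM, the 3 at each end of each list, 18 genes of the study's subject, and the 8 at each end of both differences. It names 253 genes, of which those in the text were picked after their values were seen, as were other members named to complete a count. Some genes that the rule names are not reported here.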

Additional observations from a re-analysis of the deposited data

Results flagged for a closer look

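The enrichment of 5 members differed between WT cold and WT RT by the test of the difference itself. All 5 stood lower in WT cold, a direction that the choice of members by WT cold input favours: over all 13062 genes tested 5 were lower and 3 higher, and Rnf225, Klkb1, Cideb and Olfr729 had under 1 RPKM in both WT RT inputs. Tmem38b differed by -4.49 on the log2 scale (limma adjusted p = 0.0268), with the values given above. Rnf225, a RING finger protein, had 0.305 and 0.336 RPKM in m6A and 8.83 and 14.8 RPKM in input of WT cold, and 0.593 and 0.316 RPKM in m6A and 0.956 and 0.876 RPKM in input of WT RT, a difference of -2.83 (limma adjusted p = 0.0268). Klkb1, plasma kallikrein, had 0.0314 and 0 RPKM in m6A and 3.29 and 4.88 RPKM in input of WT cold, and 0.0333 and 0.078 RPKM in m6A and 0.123 and 0.18 RPKM in input of WT RT, a difference of -2.18 (limma adjusted p = 0.0432). Cideb, a lipid droplet protein best known from liver, had 0.272 and 0.128 RPKM in m6A and 3.61 and 3.52 RPKM in input of WT cold, and 0.144 and 0 RPKM in m6A and 0.213 and 0 RPKM in input of WT RT; it differed by -1.89 (limma adjusted p = 0.0474) and its gene overlaps Nop9 and Ltb4r2. Olfr729, an olfactory receptor gene, had 0 and 0.0727 RPKM in m6A and 2.21 and 3.04 RPKM in input of WT cold and is listed at 0 in all 4 libraries of WT RT; its difference was -1.80 (limma adjusted p = 0.0432).

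In all 5 genes the inputs of WT cold stood above those of WT RT. Tmem38b and Rnf225, Klkb1 and Olfr729 had the same order in cKO cold, where their enrichment was -5.17, -4.02, -2.44 and -2.07, and Cideb did not, at 0.39. Groups of 2 libraries are too small for a test of single outlying libraries.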

How the results depend on the processing

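Of the 253 genes named by the rule 180 passed in WT cold; 149 of them passed in each alternative that kept all libraries or the 4 of WT cold, 144 in each fit without 1 library, and 140 in all of these. Among the 180, 1 changed sign under quantile scaling. Members higher in m6A numbered 1614 in the reported fit, 2538 with scaling to the sum of RPKM outside mitochondrial mRNAs, Lars2 and Gm20594 (RPKM-sum; read-sum is the same on recovered reads) and 992 of 6039 members at 5 RPKM or more in both inputs. Without 1 library at a time, 1209 to 1688 members were higher and 2610 to 3441 lower. Lep (-0.15) changed sign with median-ratio (0.0368), quantile (0.0728), RPKM-sum (0.13) and read-sum scaling (0.0501), was 1.61 and 1.89 without input replicate 1 or m6A replicate 2 of WT cold, and ran from -2.20 to 1.89 over all fits without 1 library. Plin1 changed to 0.0693, 0.16, 0.17 and 0.0796 and Fabp4 to 0.11, 0.088, 0.20 and 0.12 with the same scalings, and Fasn to 0.13 with quantile scaling.

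The replicate block moved the cold difference to 200 members higher and 35 lower, and the genotype difference to 380 higher and 8 lower. In WT cold the block gave 2232 higher and 4067 lower. It was fitted on the deposited scale alone, and the median differences changed sign with median-ratio scaling. The cold difference gave 57 higher and 22 lower with a pseudocount of 5, 32 and 12 with quantile scaling, 1 higher without a filter and with read-sum scaling, 2 lower with RPKM-sum scaling, 1 lower with at least 1 RPKM in all 12 libraries, and 0 lower with a pseudocount of 0.1 or voom weights. Without 1 library it ran from 0 to 1 higher and 0 to 5 lower, and the genotype difference from 0 to 6 higher with 0 lower. The genotype difference gave 1 higher and 1 lower with a pseudocount of 5 and without a filter, and 1 lower with median-ratio scaling and without a trend. The cause of these moves was not tested.

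With 2 libraries a group and a median standard error of 0.28 for a difference between conditions, even a log2 difference of 1 was seldom detectable. In data simulated without pairs, a step of 1 was recovered in 5.5% of changed genes for the cold difference. The share was 4.5% for the genotype difference and 49% for m6A over input. A step of 2 was recovered in 77.5%, 75% and 90%. Of 1753 members with under 50 reads 5.02% were called higher and 29.8% lower, against 27.8% and 34.4% of 662 members with 1000 reads or more.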
